A study of Mus musculus with 6 samples.

Results

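The genes described here are 7 myeloid C-type lectin receptors (Clec4n, Clec4d, Clec4e, Clec7a, Clec4a2, Clec5a and Clec12a) and Card9, the adaptor on which several of them converge. They were chosen by symbol, 8 of the 41388 genes in the tables, and all 8 were abundant enough to be tested. The group was assembled around Clec4n because Clec4n was higher in depolarized cells in these same libraries, so the Clec4n difference is described and not offered as a test. The cells were bone marrow neutrophils from C57BL/6 mice, with no genetic change named, that carried DiBAC4(3) at 250 nM, a negatively charged dye that reports membrane potential, and were given ionomycin at 100 nM, an ionophore that lets calcium into cells. Between 2 and 4 minutes later, 20000 cells that had depolarized and 20000 that had stayed polarized were sorted straight into lysis buffer. There were 3 depolarized libraries and 3 polarized libraries, 1 of each in every biological replicate pair, and the pairs are named A, B and C in ascending order of the code in their titles. Both groups received dye and ionophore, so the comparison is between responses to 1 stimulus and not between stimulated and resting cells. Sex and age of the mice, and how many mice gave each pair, were not given in the sources used here.

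C-type lectin receptors let neutrophils and other myeloid cells recognise carbohydrates and glycolipids of fungi and mycobacteria, and also debris of damaged host cells. Activating members carry, or borrow from an adaptor, a tyrosine motif that recruits the kinase Syk, which acts through protein kinase C delta on the complex of Card9, Bcl10 and Malt1 and so on NF-kB. Inhibitory members carry a different tyrosine motif, the ITIM, that recruits phosphatases. In the mouse most of these receptors are encoded in a pair of gene clusters on chromosome 6, named after dectin-2 (Clec4n) and dectin-1 (Clec7a).

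All 7 receptor genes lie on chromosome 6 of build GRCm38. Clec4n (ENSMUSG00000023349) spans chr6:123229843-123247021 on the plus strand, Clec4d (ENSMUSG00000030144) chr6:123262107-123275268 on the plus strand and Clec4e (ENSMUSG00000030142) chr6:123281789-123289870 on the minus strand. Clec4a2 (ENSMUSG00000030148) lies at chr6:123106428-123143999 on the plus strand, with its start 123 kb below that of Clec4n. The dectin-1 cluster holds Clec7a (ENSMUSG00000079293) at chr6:129461591-129472777 on the minus strand and Clec12a (ENSMUSG00000053063) at chr6:129342691-129365303 on the plus strand. Clec5a (ENSMUSG00000029915) stands apart from both at chr6:40574894-40585821 on the minus strand, and Card9 (ENSMUSG00000026928) is on chromosome 2 at chr2:26352176-26360918 on the minus strand.

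Promoters of 4 receptors are shown to set the neighbouring pair Clec4d and Clec4e beside both members from the dectin-1 cluster. None of these 4 genes passed the test between the groups. Each promoter is RefSeq sequence of GRCm38.p6 from 250 bases before to 50 bases after the RefSeq start, read 5′ to 3′ on the gene's strand. The Clec12a window lies inside the gene as counted, whose span begins upstream of it at 129342691. The table of promoters matched 7 of the 8 members, without Clec4n. Capitals mark TTTCC on either strand, the core letters bound by the calcium-regulated factor NFAT, and in Clec12a also TTGCGCAA, the palindrome bound by C/EBP factors.
Clec4d, chr6:123261857-123262156, plus strand: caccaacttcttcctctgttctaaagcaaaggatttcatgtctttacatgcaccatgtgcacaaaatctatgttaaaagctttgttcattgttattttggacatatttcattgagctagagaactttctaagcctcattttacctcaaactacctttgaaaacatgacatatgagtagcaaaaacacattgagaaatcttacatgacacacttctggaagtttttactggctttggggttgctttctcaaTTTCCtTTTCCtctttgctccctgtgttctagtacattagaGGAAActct
Clec4e, chr6:123289822-123290121, minus strand: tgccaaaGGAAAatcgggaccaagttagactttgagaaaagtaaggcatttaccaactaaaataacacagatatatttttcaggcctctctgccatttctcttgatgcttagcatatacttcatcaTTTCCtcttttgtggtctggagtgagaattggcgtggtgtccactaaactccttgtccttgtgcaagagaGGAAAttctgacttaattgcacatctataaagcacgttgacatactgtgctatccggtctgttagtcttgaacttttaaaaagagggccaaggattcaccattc
Clec7a, chr6:129472730-129473029, minus strand: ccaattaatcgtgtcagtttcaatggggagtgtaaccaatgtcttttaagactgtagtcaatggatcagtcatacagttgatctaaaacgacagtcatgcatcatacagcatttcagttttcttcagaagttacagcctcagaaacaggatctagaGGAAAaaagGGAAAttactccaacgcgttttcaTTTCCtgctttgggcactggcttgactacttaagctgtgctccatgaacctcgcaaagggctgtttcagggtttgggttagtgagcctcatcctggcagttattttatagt
Clec12a, chr6:129349994-129350293, plus strand: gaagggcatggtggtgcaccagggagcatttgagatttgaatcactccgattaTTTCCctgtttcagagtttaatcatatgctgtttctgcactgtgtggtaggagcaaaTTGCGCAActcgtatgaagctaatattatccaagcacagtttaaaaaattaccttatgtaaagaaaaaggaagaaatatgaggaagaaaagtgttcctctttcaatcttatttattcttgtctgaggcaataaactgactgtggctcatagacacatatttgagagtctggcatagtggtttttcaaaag

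TTTCC occurred 3 times in the Clec4d window, 3 times in that of Clec4e, 3 times in that of Clec7a and 1 time in that of Clec12a. In Clec4d 2 of the matches abutted the start, at positions 1 and 7 of the transcript. This short motif is common, present in 61.3% of the 32851 promoter windows of the genome, so these matches describe the letters only. TTGCGCAA was present in 0.183% of all windows and in Clec12a began 140 bases before the RefSeq start, which lies inside the counted gene. In the windows of the 7 matched members TGACTCA, the motif of AP-1, was found in Clec4a2 alone, against 5.20% of all windows. It lay 32 bases past the RefSeq start of Clec4a2, which is also inside the gene as counted. The PU.1 motif GAGGAAGT (3.20% of windows) and the NF-kB motifs GGACTTTCC (0.344%) and GGAATTTCC (0.317%) were found in none of the 7, both strands being read. The relaxed C/EBP motif TTNNNCAA, which includes the palindrome, was in 36.7% of all windows and in those of Clec4d, Clec4e, Clec5a and Clec12a.

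Levels are given as CPM (counts scaled to a common library total), and differences as depolarized minus polarized on the log2 scale with an approximate standard error (SE), from edgeR's quasi-likelihood fit over 9971 genes with the replicate pair as a block. Genes with an adjusted p under 0.05 (Benjamini-Hochberg) are termed called. By this rule 1 of the 8 members, Clec4n, was called higher, as were 8 of 9971 tested genes (0.0802%), and 0 of the 8 were called lower, against 24 genes (0.241%). DESeq2 also called 1 member, Clec4n, beside 16 genes higher and 23 lower among all 9971 tested. At an unadjusted p under 0.05 by edgeR there were 2 members, both higher, Clec7a and the Clec4n that the group was assembled around. Of all tested genes 656 (6.58%) were under that cut, 325 of them higher. Around the threshold the member inside was Clec4n and the next outside was Clec7a, at 0.39 on the log2 scale. Among all tested genes with a higher value in depolarized cells, the last inside was Abcg3 at 1.06 and the first outside was Lair1 at 0.95. Because RNA was measured in bulk, fewer cells that express a gene and less of its RNA per cell cannot be told apart for any gene here.

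**Figure D1:**
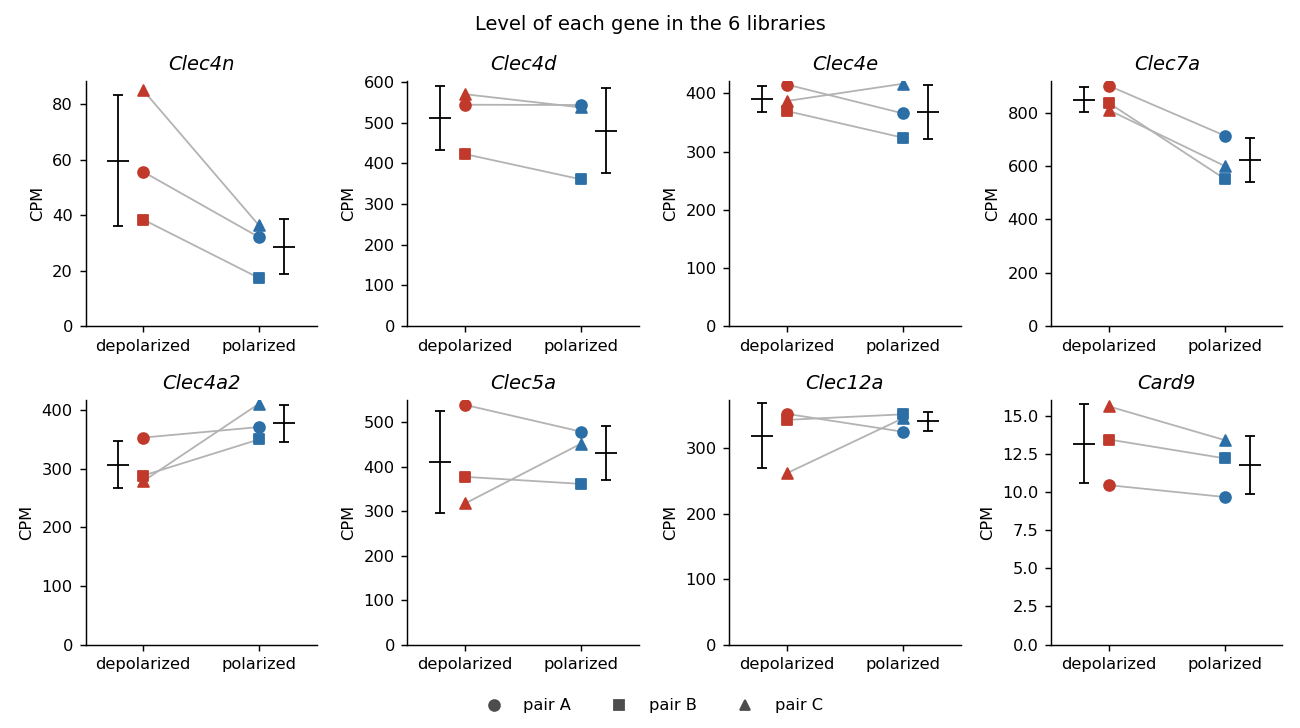
CPM (vertical axes, each from 0) of the 8 members in every library, with the depolarized libraries left of the polarized ones a line joining the libraries of a pair and a bar at the side for mean ± SD (n = 3). Clec4n, Clec4d, Clec7a and Card9 were higher by CPM in the depolarized library of all 3 pairs and Clec4a2 was lower in all 3, while the lines of Clec4e, Clec5a and Clec12a run in opposite directions.

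Clec4n encodes dectin-2, which binds mannans of fungal cell walls and signals through the Fc receptor gamma chain. Its level was 55.6, 38.4 and 84.9 CPM in the depolarized libraries of pairs A, B and C, against 32.0, 17.3 and 36.3 CPM in the polarized libraries. The depolarized library was the higher one in every pair, and by CPM all 3 depolarized libraries lay above all 3 polarized ones, as for 726 tested genes (7.28%). Scaled by TMM factors, which correct for differences in RNA composition, the groups overlapped. Clec4n averaged 59.6 ± 23.6 CPM in depolarized cells and 28.6 ± 9.96 CPM in polarized cells (SD, n = 3 each), from 3305 and 1626 counts in all. The fitted difference was 0.99 ± 0.18 (SE), which is 1.98-fold, and within pairs A, B and C the log2 difference was 0.85, 1.08 and 0.99. The difference was similar in size in the 3 pairs, while the level itself was highest in pair C and lowest in pair B in both groups. The call that selected it did not hold without the pair block (0.97, adjusted p = 0.673 by edgeR) or without pair B (0.93, adjusted p = 0.799 by edgeR). It was also lost with a gene length trend removed (1.02, adjusted p = 0.0728 by edgeR).

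Clec4d (MCL, also called dectin-3) and Clec4e (Mincle) are the gene neighbours of Clec4n, and their proteins pair with each other to recognise mycobacterial glycolipid. Clec4d stood at 544, 422 and 569.8 CPM in depolarized cells (pairs A, B and C), and at 543, 361 and 537 CPM in polarized cells. By CPM the depolarized library was the higher one in each pair, and the groups overlapped, with means of 512 ± 78.7 CPM in depolarized cells and 480.4 ± 104 CPM in polarized cells (SD, n = 3 each). For Clec4e the values were 415, 369.6 and 387 CPM in depolarized cells against 366, 324 and 417 CPM in polarized cells. Here the depolarized library was higher in pairs A and B and lower in pair C. The fitted log2 difference was 0.04 ± 0.18 for Clec4d and 0.02 ± 0.18 for Clec4e (SE), and neither passed the test, with an adjusted p of 1 by edgeR for each.

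Clec7a encodes dectin-1, the receptor for fungal beta-glucan, which carries its own Syk-recruiting motif and needs no adaptor chain. It stood at 900.2, 835 and 809 CPM in depolarized cells, against 714, 552 and 600.1 CPM in polarized cells. All 3 depolarized libraries lay above all 3 polarized ones, by CPM as for Clec4n and also after TMM scaling, where 458 tested genes (4.59%) did so. The reverse order after TMM scaling was seen for 453 genes (4.54%) and for no member. The mean was 848 ± 46.9 CPM in depolarized cells and 622 ± 83.1 CPM in polarized cells (SD, n = 3 each). The log2 difference was 0.40 in pair A, 0.56 in pair B and 0.20 in pair C. The fitted one, 0.39 ± 0.18 (SE), did not pass the test (adjusted p = 0.735 by edgeR). Without pair C it was 0.48 and passed (adjusted p = 0.000233 by edgeR), in a fit of 10102 genes that called 500 higher (4.95%) and 518 lower (5.13%). That 4-library fit called 2 members, Clec4n and Clec7a.

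Clec4a2 (DCIR) and Clec12a (MICL) are the inhibitory members, whose ITIM recruits tyrosine phosphatases. Clec4a2 stood at 353, 288 and 279 CPM in depolarized cells of pairs A, B and C, against 371, 349.7 and 410.4 CPM in polarized cells. It was the only member with the depolarized library lower in every pair, by 0.01, 0.32 and 0.79 on the log2 scale (differences -0.01, -0.32 and -0.79), although the groups overlapped by CPM. The fitted difference of -0.37 ± 0.19 (SE) did not pass the test (adjusted p = 0.823 by edgeR). Clec12a stood at 353, 344 and 262 CPM in depolarized cells, against 326, 352 and 346 CPM in polarized cells. The 3 polarized values lay close together, and the depolarized library of pair C lay below all of them. The fitted difference for Clec12a was -0.17 ± 0.19 (SE; adjusted p = 1 by edgeR). Counts of Clec4a2 carry a limit of their own, since 6.83% of the 50-base words in its transcripts also occur in transcripts of other genes, Clec4b1 and Clec4a4 among them. For Clec4n that share was 0.686%, and for Clec4d, Clec4e, Clec7a and Clec5a it was 0.

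Clec5a (MDL-1) couples to the adaptor DAP12, the product of Tyrobp. Its values were 539, 377 and 317 CPM in depolarized cells and 479, 361 and 452 CPM in polarized cells. Pairs A and B gave log2 differences of 0.23 and 0.02 and pair C one of -0.74, the widest spread between pairs among the members. The fitted difference was -0.16 ± 0.20 (SE; adjusted p = 1 by edgeR). Card9, which scaffolds Bcl10 and Malt1 downstream of the activating receptors, stood at 10.5, 13.4 and 15.6 CPM in depolarized cells, against 9.68, 12.2 and 13.4 CPM in polarized cells. Its log2 difference was 0.17 in pair A, 0.10 in pair B and -0.01 in pair C, with a fitted value of 0.09 ± 0.21 (SE; adjusted p = 1 by edgeR). Of the Card9 exon length, 3.79% is overlapped on the other strand by Gm13562, and the sources used here do not give whether counting used strand.

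The pairs differed in what the group of genes did. By TMM-scaled CPM, 7 of the 8 members were higher in the depolarized library in pair A, 6 in pair B and 2 in pair C, which were Clec4n and Clec7a. By CPM without that scaling the count in pair C was 4, with Clec4d and Card9 added, and those of pairs A and B were again 7 and 6. Over all tested genes the share above 0 was 49.2% in pair A, 49.8% in pair B and 50.5% in pair C. The median log2 difference over the 8 members was 0.21 in pair A, 0.12 in pair B and -0.24 in pair C, beside medians over all tested genes of -0.01, -0.00 and 0.01. These counts and medians of members include Clec4n, around which the group was assembled, and are a description. The polarized library of pair C was the one that stood apart from its group. Its count profile differed from those of the other polarized libraries by a chi-square of 96.1 and 100.2 per degree of freedom, against 29.1 for the closest libraries within a group, and its TMM factor was the lowest of the 6, 0.876. Without pair C the fitted log2 differences were 0.13 for Clec4d, 0.20 for Clec4e, 0.13 for Clec5a and 0.05 for Clec12a, and the signs for Clec5a and Clec12a were negative in the fit of all 6 libraries.

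**Figure D2:**
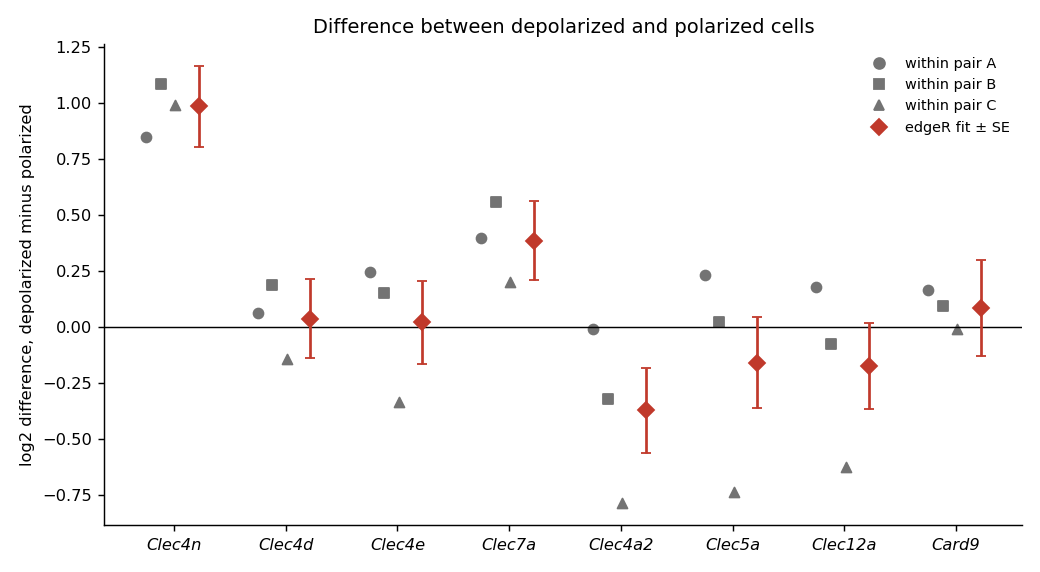
Log2 difference between the depolarized and the polarized library of each pair (vertical axis, from TMM-scaled CPM + 0.5) for the 8 members, with 1 grey point per pair and a red diamond for the edgeR fit with its SE. The grey points of Clec4n lie together between 0.85 and 1.08, and for 6 of the 8 members, all but Clec4n and Clec7a, the point of pair C is below 0.

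On the scale of RPKM, which divides CPM by the gene's listed exon length and so allows levels of different genes to be set side by side, the members fell in the same order in both groups. Clec4d was highest by mean RPKM (383 ± 58.9 in depolarized cells and 359.6 ± 77.7 in polarized cells, SD, n = 3 each) and Clec7a followed (373 ± 20.6 in depolarized cells and 273 ± 36.5 in polarized cells). The ranges of these top 2 genes overlapped in both groups. Clec4a2 (107 ± 14.1 in depolarized cells and 132 ± 10.8 in polarized cells) and Clec5a (107 ± 29.9 and 112 ± 16.0, in the same order of groups) came next and overlapped each other in both. Clec4e (78.7 ± 4.62 in depolarized cells and 74.3 ± 9.35 in polarized cells) and Clec12a (62.2 ± 9.70 in depolarized cells and 66.4 ± 2.71 in polarized cells) were separate from each other in depolarized cells and overlapped in polarized cells. Clec4n was the lowest receptor, at 42.0 ± 16.6 RPKM in depolarized cells and 20.1 ± 7.01 RPKM in polarized cells. Its range reached that of Clec12a, the receptor above it, in depolarized cells and not in polarized cells. Card9 was far below every receptor, at 5.74 ± 1.13 RPKM in depolarized cells and 5.13 ± 0.831 RPKM in polarized cells.

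**Figure D3:**
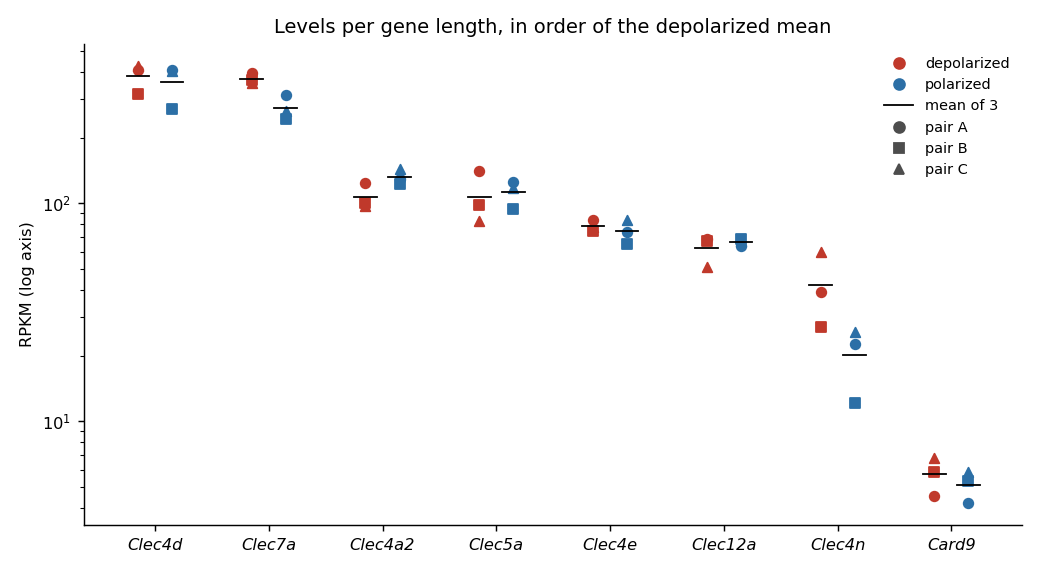
RPKM of the 8 members (log axis) in order of their mean, with a point per library and a bar at the mean of each group, depolarized beside polarized. Clec4n and Card9 are the lowest of the 8 in both groups.

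Ratios of members within a library do not depend on how libraries are scaled. Counts of Clec4n were 10.2, 9.08 and 14.9% of those of Clec4d in depolarized cells of pairs A, B and C, against 5.90, 4.80 and 6.76% in polarized cells. The log2 difference in this ratio was 0.79, 0.92 and 1.14, with a mean of 0.95 ± 0.18 (SD, n = 3 pairs). Set against Clec4e, Clec4n counts came to 13.4, 10.4 and 21.9% in depolarized cells and 8.76, 5.35 and 8.71% in polarized cells. Against Clec4a2 they came to 15.8, 13.3 and 30.5% in depolarized cells and 8.64, 4.95 and 8.84% in polarized cells. Those 3 ratios kept the groups apart, with each depolarized library above each polarized one. Because Clec4n was chosen for being higher in these same libraries, that separation is a description and no further support. How often other gene pairs keep the groups apart was not counted. With Clec7a, itself higher in depolarized libraries, the groups overlapped: Clec4n counts were 6.18, 4.59 and 10.5% of those of Clec7a in depolarized cells and 4.49, 3.14 and 6.05% in polarized cells. The 7 receptors together made up 3160 CPM, 2675 CPM and 2709 CPM in depolarized cells, against 2830 CPM, 2317 CPM and 2798 CPM in polarized cells, and this sum overlapped between the groups.

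The gene clusters around the receptors were examined next, taking every gene within 500 kb. Around Clec4n the tables list 30 genes, of which 15 had a count and 11 were tested. Clec4n was the 1 gene called there, higher, by edgeR and by DESeq2, 4 of the 11 had an unadjusted p under 0.05, as did 656 of all 9971 tested genes (6.58%), and the median log2 difference was 0.15. The lectin genes Clec4a1 and Clec4a3 lie between Clec4n and the C3a receptor gene C3ar1. Clec4a1 stood at 16.7, 13.9 and 33.7 CPM in depolarized cells, against 10.8, 10.2 and 17.5 CPM in polarized cells. Clec4a3 stood at 28.9, 18.6 and 42.9 CPM in depolarized cells, against 16.8, 8.98 and 34.1 CPM in polarized cells. Like Clec4n, both had their highest value of each group in pair C and were higher in the depolarized library of every pair. By CPM the groups of both overlapped, unlike those of Clec4n, and after TMM scaling the groups overlapped for all of these genes. The fitted log2 differences of Clec4a1 and Clec4a3 were 0.61 ± 0.21 and 0.64 ± 0.22 (SE), and neither passed the test (adjusted p = 0.406 by edgeR for each). C3ar1 had a fitted difference of 0.99 ± 0.36 (SE; adjusted p = 0.506 by edgeR), as large as that of Clec4n and less precise. The groups did not overlap for C3ar1 by CPM or after TMM scaling, the latter as for 458 tested genes (4.59%) in that direction. Slc2a3, Foxj2, Necap1 and Clec4a4 also fell short of the test, at 0.15, 0.03, 0.01 and 0.50 on the log2 scale.

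Around Clec7a 45 genes are listed, of which 28 had a count and 11 were tested. By edgeR and by DESeq2 0 of the 11 were called, 2 had an unadjusted p under 0.05, and the median log2 difference was 0.04. Those 2 were Clec7a and its neighbour Clec1a, a lectin gene at 1.77, 1.72 and 1.36 CPM in depolarized cells and 0.983, 0.411 and 0.612 CPM in polarized cells. The groups did not overlap by CPM for Clec1a, as for 726 tested genes (7.28%) in that direction. Its counts were few, and the fitted difference of 1.24 ± 0.50 (SE) did not pass the test (adjusted p = 0.604 by edgeR). Olr1, the receptor for oxidised lipoprotein, was at -0.25, Cd69 at -0.38, Klra17 at 0.04 and Clec9a at -0.87 ± 0.62 on the log2 scale. The other tested neighbours were Clec1b at -0.11, Tmem52b at 0.65, Gabarapl1 at 0.19 and 2310001H17Rik at 0.04.

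**Figure D4:**
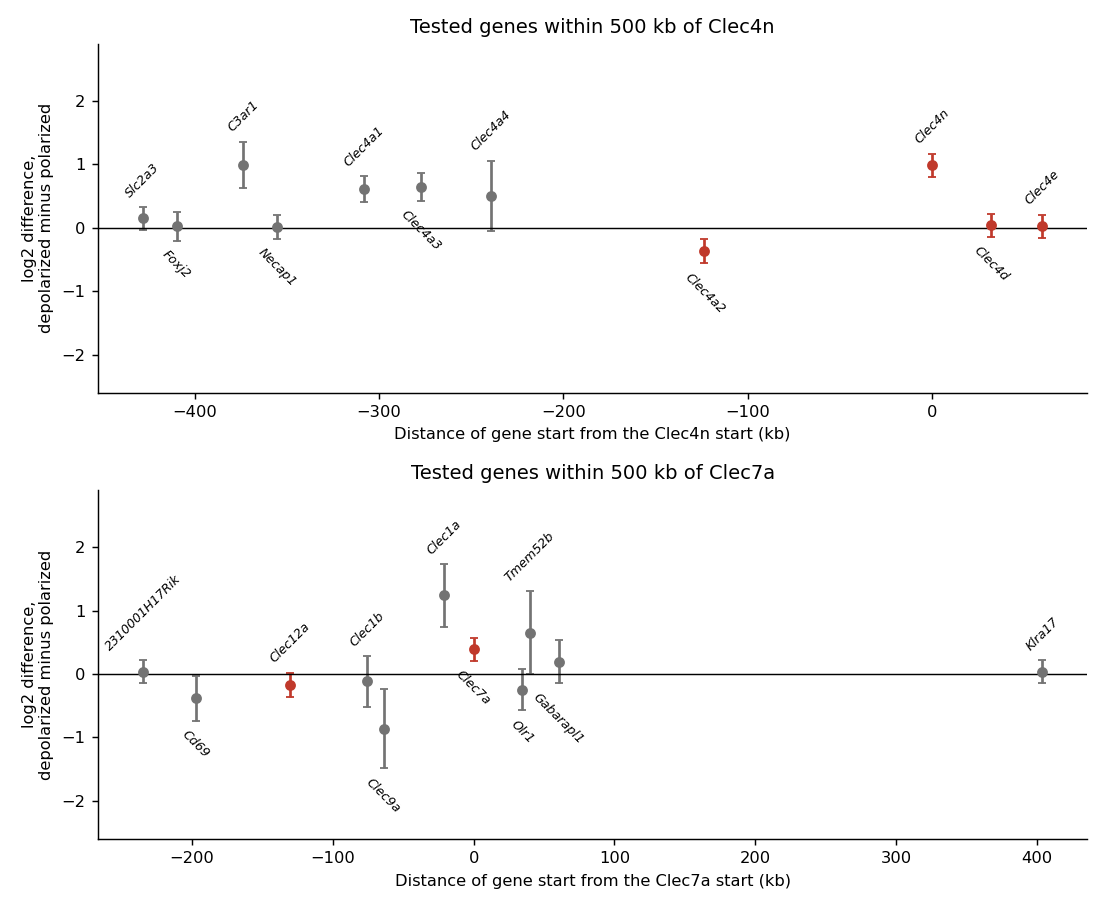
Fitted log2 difference, depolarized minus polarized, with its SE (vertical axis) against distance in kb from the start of Clec4n and from that of Clec7a (horizontal axes) for the tested genes within 500 kb. Members are red and other genes grey, and Clec4n is the 1 gene called.

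The signalling pathway was followed from the receptors inward. The Fc receptor gamma chain gene Fcer1g, whose product carries the signal of dectin-2 and Mincle, had a fitted log2 difference of -0.10 ± 0.19 (SE), and Tyrobp one of 0.13 ± 0.19. Syk was at 0.16 ± 0.18, its substrate phospholipase C gamma 2 (Plcg2) at -0.04 ± 0.19 and protein kinase C delta (Prkcd) at 0.01 ± 0.20. The partners of Card9 stood at -0.10 ± 0.17 for Bcl10 and -0.14 ± 0.26 for Malt1. None of these 7 genes passed the test (adjusted p = 1 by edgeR for each), and each difference was smaller than its SE. In the wider list of ITAM adaptors and proximal kinases, 0 of 19 tested genes were called by edgeR or DESeq2, 1 was higher and 1 lower at an unadjusted p under 0.05, and the median was 0.07. In the list from Card9 to NF-kB, 0 of 22 were called by edgeR or DESeq2, with 0 at an unadjusted p under 0.05 and a median of 0.07. Over all 9971 tested genes the median was -0.00, with 325 higher and 331 lower at an unadjusted p under 0.05.

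Inhibitors of ITAM and lectin signalling gave 0 of 15 called by edgeR or DESeq2, 1 lower at an unadjusted p under 0.05 and a median of 0.13. Ptpn6, the phosphatase SHP-1 that ITIM receptors recruit, was at 0.15 ± 0.18 (SE). Partner receptors in fungal recognition, among them the integrin genes Itgb2 at 0.09 and Itgam at 0.10 and the Fc receptor gene Fcgr3 at -0.03, gave 0 of 15 called by edgeR or DESeq2, 1 higher at an unadjusted p under 0.05 and a median of 0.09. Of the other C-type lectin genes, 16 of 44 were tested. By edgeR and DESeq2 0 of these were called, 3 were higher and 1 lower at an unadjusted p under 0.05, and the median was 0.03.

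Response genes, the cytokines and enzymes that Syk and Card9 signalling is known to induce, had the highest median of these lists, 0.40, and pair medians of 0.31, 0.32 and 0.36. Of 27 listed genes 15 were tested, and 0 were called by edgeR or DESeq2, although 7 were higher at an unadjusted p under 0.05 and 0 were lower. Il1b, for interleukin 1 beta, stood at 1004, 952.7 and 1086 CPM in depolarized cells, against 762, 588 and 601 CPM in polarized cells. The groups did not overlap by CPM for Il1b, as for 726 tested genes (7.28%) in that direction. Its fitted difference of 0.58 ± 0.18 (SE) did not pass the test (adjusted p = 0.317 by edgeR). Ptgs2, which encodes cyclooxygenase-2, was at 0.52 ± 0.19 (SE; adjusted p = 0.524 by edgeR), with values of 206, 160.1 and 147 CPM in depolarized cells and 209, 102 and 66.0 CPM in polarized cells. Its depolarized and polarized values were nearly equal in pair A and furthest apart in pair C. Cxcl2, a neutrophil-attracting chemokine, was at 0.05. Il6, Il12b and Csf2 had 0 counts in all 6 libraries, which allows levels of up to 0.0531 CPM in depolarized cells and 0.0536 CPM in polarized cells (3 counts over the group, counting error only). The list's genes were put together with results of these data known, so their median is a description.

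The fit without pair C called 4.95% of its genes higher and 5.13% lower. Of all 1018 genes it called, 417 (41.0%) kept their sign within pair C, and of the 500 called higher 240 (48%) did. In it 5 response genes were called, all higher (Il1b, Ccl3, Ccl4, Ptgs2 and Nlrp3), named after their values were seen, and all 5 kept their sign within pair C. In that fit 3 of 20 tested genes of the ITAM list were called, Fgr, Tec and Lcp2, and 0 of them kept their sign within pair C. Of the partner receptors 5 of 15 were called, Itgb2, Tlr4, Tlr6, Cd14 and Trem1, of which 1 kept its sign within pair C. Of the other C-type lectin genes 4 of 16 were called, 3 higher and 1 lower, and 3 of the 4 kept their sign within pair C. Of the inhibitors 5 of 15 were called, with Pirb, Cd300a and Siglece higher and Dok2 and Pag1 lower, and 3 of the 5 kept their sign. From Card9 to NF-kB the count was 0 of 22 by edgeR. These genes too were named after their values were seen. The signs within pair C rest on that pair alone, so these counts are a description and no support for the calls.

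**Figure D5:**
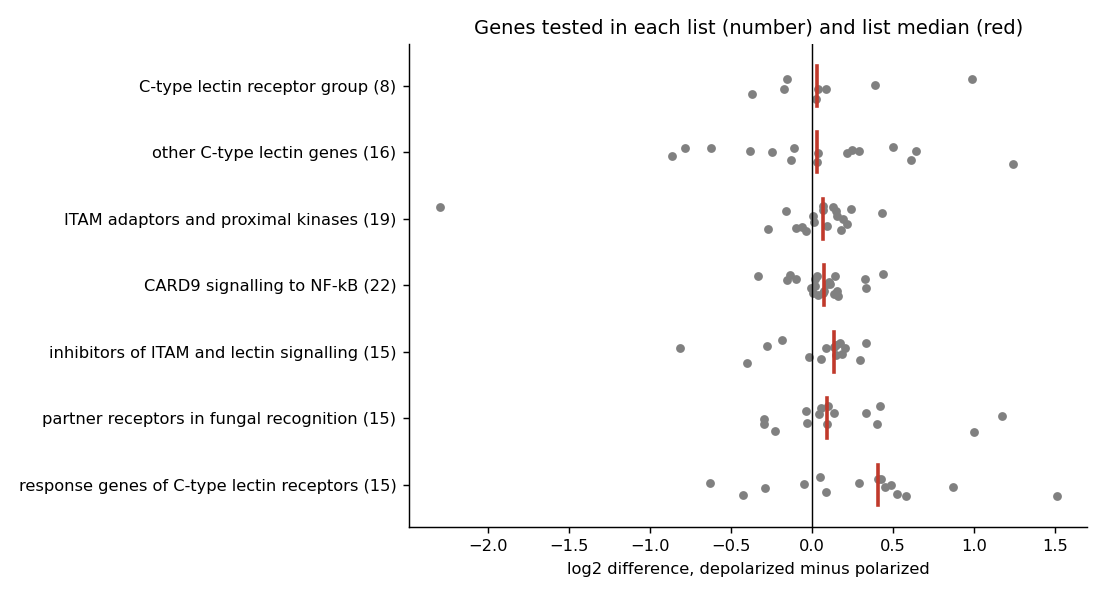
Fitted log2 difference, depolarized minus polarized (horizontal axis), of each tested gene in the receptor group and the 6 pathway lists, with 1 point per gene and a line at the list's median. The points of the response genes lie mostly above 0, with a median of 0.40, and the other pathway lists have medians between 0.03 and 0.13.

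The genes whose profile over the 6 libraries was most like that of Clec4n were found among 5187 genes by Pearson's r of log2 TMM-scaled CPM. The closest were Pgghg (0.99), Siglecf (0.99), 1700071M16Rik (0.98), Birc3 (0.98) and Ccnd2 (0.98). Within the group, Clec7a was the most like Clec4n (0.83), followed by Clec4d (0.73), Clec4e (0.60) and Card9 (0.44). Clec5a at 0.09, Clec4a2 at -0.16 and Clec12a at -0.36 were the least like it. These values rest on 6 libraries that share pairs and the scaling, and the difference between the groups enters each of them.

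Library totals ran from 16904969 to 20381489 counts. Markers of the labelled cell type were abundant, with S100a8 alone between 74182 and 85447 CPM in depolarized cells and between 84267 and 105753 CPM in polarized cells. The 12 neutrophil markers summed to 171207 to 194363 CPM in depolarized cells and 199240 to 246678 CPM in polarized cells. By edgeR 2 of the 12 were called lower (Camp and Ltf, named after their values were seen), and by DESeq2 0 were called. Markers of early neutrophil precursors summed to 16.0 to 31.1 CPM in depolarized cells and 63.1 to 355 CPM in polarized cells. By edgeR 6 of these 8 were called lower, and DESeq2 called 6. Among all 9971 tested genes edgeR called 24 lower (0.241%). Monocyte markers summed to 817 to 903 CPM in depolarized cells and 897 to 1176 CPM in polarized cells, with 0 of the 5 tested called and none at 0 in all 6 libraries. The sums for macrophage markers (112 to 154 CPM in depolarized cells, 97.7 to 123 CPM in polarized cells) and dendritic cell markers (59.1 to 87.5 CPM and 46.7 to 76.4 CPM, in the same order of groups) overlapped. The macrophage sum was mostly Adgre1, the 1 tested marker of 9 with a fitted value above 0, and the list's median log2 difference was -0.92. For the 5 monocyte markers tested the median was -1.41, with 4 below 0. The part of these marker differences in the values of Clec4n, Clec7a and Clec4a2 was not tested.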

How the data were processed

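Each of the 6 libraries has a deposited table of a count, a CPM and an RPKM for 41388 genes. Per the submitters' processing notes, bcl2fastq, STAR (2.0.4b), Subread and featureCounts (1.45) were used with GRCm38. The deposited counts are whole and not normalized. Recomputing the authors' CPM from the counts and library totals gave a largest difference of 4.8e-10, and the deposited RPKM equals CPM per kilobase of the listed length within 6.98e-10. Strand setting, annotation release and treatment of reads with several matches were not given in the sources used here, so reads of overlapping or near-identical genes can be misplaced. PCR copies were not told apart, so floors cover counting error only.

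Groups came from the response label, and pairs from the code in the titles together with the design text. In a check of that pairing, the deviation of each gene from its group mean correlated between libraries of a pair by 0.08 in pair A, 0.27 in pair B and 0.03 in pair C. Libraries of different pairs correlated by -0.22 to 0.13, the highest being depolarized A with polarized C, so the values show little of the pairing. A run label differs in the depolarized library of pair B, and what it stands for was not given in the sources used here.

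Counts were fitted in R 4.3.3 with edgeR 4.0.16: filterByExpr (9971 genes, 99.9% of counts), TMM, quasi-likelihood F test, pair as block, 2 residual degrees of freedom, Benjamini-Hochberg adjustment over all tested genes. SE was approximated as log2 fold change over the root of F. Within-pair differences are log2(TMM-scaled CPM + 0.5). With 3 pairs an exact two-sided sign-flip test cannot go below p = 0.25, so none was run. Alternatives were DESeq2 1.42.0, other filters, pseudocounts, no block and each pair left out. Promoters came from RefSeq, exon overlap and shared 50-base words from GENCODE M21. A comparison of protein sequences was not made, since no protein table was used here. Members and gene lists were chosen with earlier results of these data known. Rules set most of the genes named beyond the 8 members. They took the 7 signalling genes above, the most abundant or called genes of each pathway list and the most abundant gene of each marker list. They also took the tested cluster genes and the 5 genes most like Clec4n, although not every gene this names is reported here. Some genes outside these rules, Csf1r, Itgax, Camp and Ltf among them, were named after their values were seen and are marked as such.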

Additional observations from a re-analysis of the deposited data

How the results depend on the processing

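Card9 and the low cluster genes had fewer counts than the receptors, which limits their precision. Among all genes tested, 8 were called higher and 24 lower. Without the replicate block 0 were higher and 0 lower by edgeR (at an unadjusted p under 0.05 there were 511, and 656 with it), and 0 members were called, with Clec4n at 0.97 (adjusted p = 0.673 by edgeR). DESeq2 with the block called 16 genes higher. Without a filter there were 50 higher and 96 lower, and with a stricter one 4 higher and 8 lower. Removing a trend with gene length, an alternative chosen after seeing the data, left 0 higher, 7 lower and 0 members, with Clec4n at 1.02 (adjusted p = 0.0728 by edgeR). Leaving out each pair in turn gave 9 to 500 genes higher, 36 to 518 lower and 0 to 2 members, the highest counts coming without pair C. Clec4n then ranged from 0.93 (without pair B) to 1.05 (without pair A, adjusted p = 0.0444 by edgeR). The sign turned within the ranges of Clec4d (-0.0378 to 0.13), Clec4e (-0.0888 to 0.20), Clec5a (-0.35 to 0.13) and Clec12a (-0.35 to 0.0526). Clec7a kept its sign and was called without pair C alone. Other pseudocounts moved no within-pair mean by more than the spread between pairs. The cause of these changes was not tested.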

Other observations

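Among marker genes of other myeloid cells, Csf1r and Itgax were higher by CPM in all 3 depolarized libraries than in all 3 polarized ones. The same held for 726 tested genes (7.28%). Most of the lists that hold Csf1r and Itgax had fitted values below 0 (4 of 5 tested monocyte markers and 4 of 6 tested dendritic cell markers). Csf1r, the receptor for macrophage colony-stimulating factor, stood at 168, 166 and 157 CPM in depolarized cells, against 112, 102 and 105 CPM in polarized cells (log2 difference 0.55 ± 0.17 SE, adjusted p = 0.351 by edgeR). Itgax, the integrin CD11c, stood at 17.2, 20.5 and 27.9 CPM in depolarized cells, against 10.9, 13.6 and 6.22 CPM in polarized cells (1.06 ± 0.26 SE, adjusted p = 0.133 by edgeR). In contrast Ly6c2, the most abundant monocyte marker, stood at 735, 651 and 657 CPM in depolarized cells, against 781, 902.5 and 1061 CPM in polarized cells (-0.48 ± 0.20 SE, adjusted p = 0.631 by edgeR). None of these 3 passed the test, and they were named after their values were seen. B and plasma cell markers summed to 482 to 1227 CPM in depolarized cells and 534 to 626 CPM in polarized cells. Eosinophil markers summed to 56.1 to 201 CPM and 51.1 to 481 CPM in the same order of groups. In each of these lists 0 of 7 tested genes were called by edgeR or DESeq2. T and NK cell markers summed to 16.9 to 23.4 CPM in depolarized cells and 23.9 to 29.1 CPM in polarized cells, without overlap. Of 3 tested T and NK cell markers edgeR called 1 lower, at -4.65 on the log2 scale, and DESeq2 called 1. Among all 9971 tested genes edgeR called 24 lower (0.241%).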
